A study of Homo sapiens with 6 samples.

Results

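The genes described are 47 human genes of DNA damage repair, taken by symbol and grouped into 6 routes: homologous recombination (15 genes), the Fanconi pathway (10), mismatch repair (2), excision and single-strand break repair (7), end joining (5) and the damage checkpoint (8). Of the 47, 43 had a probe set of their own in the array annotation, out of 18404 genes measured in all. ERCC5, an excision nuclease, shared its probe set with another symbol, and the other 3 genes were not analysed here. Where a gene had several probe sets, the one that was brightest on average over the 6 arrays (mean log2) stands for it, and every one of the 43 lay above the median tested probe set.

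The cells were MDA-MB-231, an established line from a human triple-negative breast cancer, grown as a bulk culture in DMEM for 25 days in 1 of 2 sugars. The 3 fructose cultures received 10 mM fructose and the 3 glucose cultures 25 mM glucose, so sugar and concentration differed together. Every array is a culture adapted on its own, with total RNA prepared at about 70% confluency, 24 hours or so after the medium was renewed. By its title, the series asks how restricting glycolysis alters gene expression. All 6 markers of the line lay above the median tested probe set (VIM between 2759 and 2980). Of 8 luminal genes, ESR1, PGR, FOXA1, ERBB3 and CDH1 (5) lay below it and KRT18, GATA3 and TFF1 (3) above it, and KRT18 read 393, 378 and 284 in fructose, against 335, 349.6 and 386 in glucose.

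Cells mend broken DNA by routes that differ in template and timing. Homologous recombination copies an intact sister chromatid and therefore works mainly in S and G2 phase, the Fanconi pathway unhooks crosslinks that block replication forks, and mismatch repair corrects copying errors behind the fork. End joining religates broken ends at any stage, excision repair removes damaged bases or helix-distorting lesions, and the checkpoint kinases ATM and ATR halt the cycle while repair proceeds. Many genes of the replication-coupled routes are transcribed at the G1 to S transition under E2F factors.

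Most of the repair genes were slightly dimmer in fructose. Of the 43 measured, 31 were lower and 12 higher in fructose, and their median log2 difference (fructose minus glucose) was -0.13. Over all 18404 genes the median was 0.02, and 43.5% were lower in fructose. No repair gene passed the test across all probe sets (limma, Benjamini-Hochberg adjusted p under 0.05). Only 0.00354% of the 28230 tested probe sets did, and the smallest adjusted p among the repair genes was 0.137. Genes named below as lower or higher are therefore described by their values and not called as changed. The 43 genes were chosen with earlier results of these data known, so the shares below describe them and are not independent support. At an unadjusted p under 0.05, 12 repair genes (27.9%) were lower, against 5.74% of all genes, and 2 (4.65%) were higher, against 8.53% of all genes. In 15 (34.9%) every fructose array lay below every glucose array, against 10.0% of all genes. Among the 11059 genes whose probe set lay above the median, as all 43 did, the share was 14.1%. In 5 (11.6%) every fructose array lay above, against 13.0% of all genes and 16.6% of those 11059 genes, so that share was not above either background.

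By route, the median differences were -0.22 in the Fanconi route (7 of 8 lower), -0.20 in mismatch repair (2 of 2), -0.15 in end joining (5 of 5) and -0.12 in homologous recombination (11 of 14). The checkpoint genes had a median of -0.03, with 4 of 8 lower. Excision repair had a median of 0.11, with 4 of 6 higher. Over all genes 10406 of 18404 were higher, with a median of 0.02. The median of each route rests on few genes, and no difference between routes was tested.

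**Figure D1:**
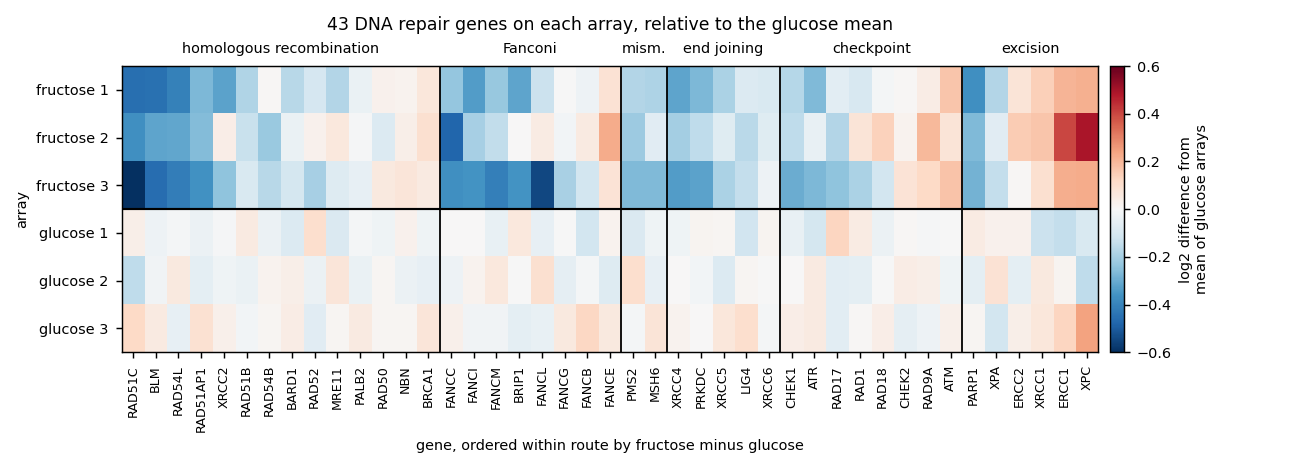
Log2 intensity of the 43 measured repair genes (columns, by route) on each of the 6 arrays (rows, fructose above glucose), as the difference from the mean of the glucose arrays. Blue is lower and red is higher. The left ends of the recombination and Fanconi blocks are blue on all 3 fructose arrays, while the right end of the excision block (ERCC1, XPC) is red there. Fructose 2 is paler than fructose 1 and 3 for most genes.

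The fructose arrays were not equal. Relative to the glucose mean, the 43 genes had median differences of -0.13, -0.04 and -0.19 on fructose replicates 1, 2 and 3, against -0.01, -0.01 and 0.03 on glucose replicates 1, 2 and 3. Fructose replicate 2 was the brightest fructose array for 31 of the 43 genes, and fructose replicate 3 was the dimmest for 25. The median over the genes was -0.14 without fructose replicate 2, and it ran from -0.14 to -0.11 over the fits with an array left out.

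Promoters are shown for the recombination and Fanconi genes that lay furthest below glucose and have a window in the RefSeq table (GRCh38.p14, 250 bases before to 50 after the start site, read 5′ to 3′ on the gene's strand). Of the 43 genes, 38 had such a window, and FANCI was among those without one. Capitals mark the E2F words TTTCGCGC, TTTGGCGC and TTCCCGCC, searched on both strands, so that GGCGGGAA is TTCCCGCC on the other strand. The window of RAD51C holds none of them.
BLM chr15:90717096-90717395 (+ strand): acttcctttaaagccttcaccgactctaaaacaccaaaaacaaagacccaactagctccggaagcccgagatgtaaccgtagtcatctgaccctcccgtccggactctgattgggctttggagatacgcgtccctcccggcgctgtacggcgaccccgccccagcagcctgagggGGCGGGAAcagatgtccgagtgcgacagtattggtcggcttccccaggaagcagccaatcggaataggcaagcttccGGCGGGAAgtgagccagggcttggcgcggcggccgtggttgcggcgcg
RAD54L chr1:46247438-46247737 (+ strand): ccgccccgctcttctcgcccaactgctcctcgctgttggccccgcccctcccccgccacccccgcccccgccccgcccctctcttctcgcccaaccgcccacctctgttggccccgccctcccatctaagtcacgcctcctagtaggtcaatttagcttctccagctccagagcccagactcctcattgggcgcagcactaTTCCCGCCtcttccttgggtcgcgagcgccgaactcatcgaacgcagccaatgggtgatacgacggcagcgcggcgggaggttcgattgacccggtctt
RAD51AP1 chr12:4538640-4538939 (+ strand): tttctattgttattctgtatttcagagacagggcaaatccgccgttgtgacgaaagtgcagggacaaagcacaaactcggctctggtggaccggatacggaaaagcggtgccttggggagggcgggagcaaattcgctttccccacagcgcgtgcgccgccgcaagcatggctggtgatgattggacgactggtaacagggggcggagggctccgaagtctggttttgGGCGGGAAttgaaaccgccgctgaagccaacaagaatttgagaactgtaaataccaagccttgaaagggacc
FANCC chr9:95317205-95317504 (- strand): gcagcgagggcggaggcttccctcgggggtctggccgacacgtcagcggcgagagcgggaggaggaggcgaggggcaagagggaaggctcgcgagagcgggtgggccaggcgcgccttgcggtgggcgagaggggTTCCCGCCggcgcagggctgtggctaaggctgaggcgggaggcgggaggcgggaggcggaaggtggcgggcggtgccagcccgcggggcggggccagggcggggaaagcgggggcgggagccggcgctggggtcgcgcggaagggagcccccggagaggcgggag
RAD51C chr17:58692323-58692622 (+ strand): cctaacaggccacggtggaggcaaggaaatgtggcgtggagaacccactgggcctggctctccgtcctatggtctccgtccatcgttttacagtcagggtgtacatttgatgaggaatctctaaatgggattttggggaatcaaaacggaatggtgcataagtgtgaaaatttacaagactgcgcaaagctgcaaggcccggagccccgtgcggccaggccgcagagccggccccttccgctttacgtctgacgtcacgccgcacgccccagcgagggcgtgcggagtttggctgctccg

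BLM holds TTCCCGCC on the reverse strand 75 bases before the start site and again from base 3 of the transcript. In the printed window of RAD54L the word begins 49 bases before the start site, in RAD51AP1 22 bases before it and in FANCC 115 bases before it. In windows of a further start site, not printed, RAD54L holds the word 124 bases and FANCC holds TTTCGCGC 172 bases before that site. An E2F word stood in 11 of the 38 genes (28.9%), against 7.25% of the 14230 measured genes with a window and 5.11% of all 27305 genes in the table. A gene was counted once if any of its windows held a word, whether or not words overlapped each other or another motif. The share was 42.1% (8 of 19) in recombination and Fanconi genes and 15.8% (3 of 19) in the other routes. It was 23.3% (21 of 90) among the further repair genes of these routes and 76.5% (13 of 17) among S phase genes. The 11 genes with a word had a median difference of -0.21, with 10 lower in fructose, and the 27 without a word had -0.07, with 17 lower. This contrast was not tested, and 8 of the 11 are recombination or Fanconi genes, so word and route overlap. XPC is the single gene with a word that was higher, and PARP1 and RAD51C were lower without one. The CCAAT box (CCAAT) stood in 55.3% of the 38 genes and in 42.2% of measured genes, and the CHR word TTTGAA in 15.8% and 15.7%. A match describes the letters only and is not a binding site shown here.

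Homologous recombination held the repair genes furthest below glucose. RAD51C belongs to the paralog complexes that help load the strand-exchange recombinase onto resected DNA. It had intensities of 125, 132 and 105 in fructose, against 175, 153 and 185 in glucose. The groups did not overlap, and the log2 difference was -0.50 (SE 0.11, 95% interval -0.77 to -0.24, limma adjusted p = 0.182). BLM, the helicase that dissolves joined recombination intermediates, had 141, 154 and 139.7 in fructose, against 188, 189 and 199 in glucose. All fructose values lay below all glucose values, with a difference of -0.41 (SE 0.07, adjusted p = 0.137), the smallest p among the repair genes.

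RAD54L, a DNA translocase that drives strand invasion, had 133, 142 and 133 in fructose, against 175, 184 and 171 in glucose, a difference of -0.38 (SE 0.07, adjusted p = 0.144). RAD51AP1, a partner of the recombinase that stabilises the joint, had 432, 434 and 405 in fructose, against 508, 499.5 and 554 in glucose. It differed by -0.30 (SE 0.07, adjusted p = 0.207). For both genes the arrays of the 2 sugars did not overlap.

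The call on these genes depended on how variances were modelled. With an intensity trend and robust variances, 6 repair genes fell past the threshold and 0 rose, namely BLM (adjusted p = 0.0217), RAD54L (0.0264), PARP1 (0.0287), RAD51AP1 (0.0341), RAD51C (0.0403) and FANCI (0.0444). In that fit 0.951% of all genes fell and 1.16% rose. Among probe sets above the median brightness alone, BLM, RAD54L and PARP1 passed, where 1.08% of the 11059 genes tested were called lower and 1.43% higher.

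The tumour suppressor BRCA1, which directs resected ends into recombination, was not among the lower genes. Its intensity was 97.1, 99.2 and 96.3 in fructose, against 91.0, 89.8 and 97.7 in glucose, and the groups overlapped. The difference was 0.07 (95% interval -0.09 to 0.23, limma adjusted p = 0.694). Its partner BARD1 differed by -0.10 and PALB2, which bridges BRCA1 to the recombinase loader, by -0.03. The break-sensing complex lay close to 0, with RAD50 at 0.00, MRE11 at -0.06 and NBN at 0.04. The remaining recombination genes were the paralogs RAD51B (-0.13, no overlap between groups) and XRCC2 (-0.17), the translocase RAD54B (-0.13) and the annealing factor RAD52 (-0.09), each with an interval that includes 0.

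**Figure D2:**
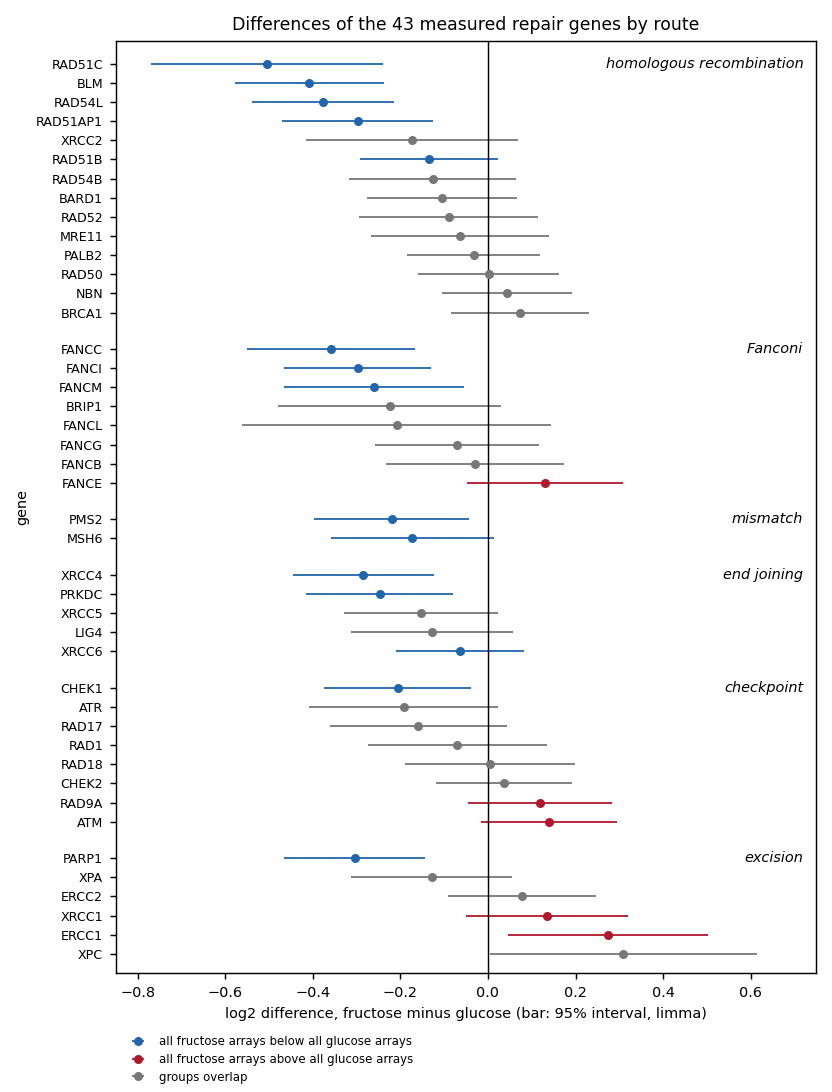
Log2 difference (fructose minus glucose) of each of the 43 genes with its 95% interval from limma, grouped by route. Blue genes had all fructose arrays below all glucose arrays (15 genes), red genes had all above (5 genes), and grey genes overlapped. RAD51C lies lowest at -0.50 and XPC highest at 0.31, where its groups still overlap.

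In the Fanconi route, the groups did not overlap for 3 genes lower in fructose and for 1 higher gene, FANCE. FANCC, a core complex subunit, had 70.5, 59.6 and 64.1 in fructose, against 82.9, 80.9 and 84.5 in glucose, a difference of -0.36 (SE 0.08, limma adjusted p = 0.188). FANCI, a subunit of the clamp that is monoubiquitinated at crosslinks, had 222, 244 and 218 in fructose, against 279.9, 284 and 276 in glucose. It differed by -0.30 (SE 0.07, adjusted p = 0.2). FANCM, the translocase that anchors the core complex on DNA, had 92.8, 97.9 and 81.6 in fructose, against 105, 113 and 107 in glucose, a difference of -0.26 (SE 0.09). Each of these 3 genes was below every glucose array on every fructose array.

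BRIP1, a helicase that binds BRCA1, had 211, 263 and 205 in fructose, against 274, 262 and 252 in glucose. Fructose replicate 2 lay among the glucose arrays, and the difference of -0.22 (95% interval -0.48 to 0.03) was -0.34 without that array. FANCL, the ubiquitin ligase of the core complex, differed by -0.21 with fructose replicate 3 far below the others (92.5, against 123 and 139.9 on fructose replicates 1 and 2). The core subunits FANCG (-0.07) and FANCB (-0.03) overlapped between the sugars. FANCE, which links the core complex to its substrate, was the single Fanconi gene on the other side. It had 86.9, 95.7 and 86.6 in fructose, against 83.0, 77.7 and 85.2 in glucose, without overlap (difference 0.13, SE 0.08). Leaving out fructose replicate 2 gave a Fanconi median of -0.31, and leaving out fructose replicate 3 gave -0.10.

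Both measured mismatch genes were lower on all fructose arrays. PMS2, the endonuclease subunit that nicks the new strand, had 105, 102 and 99.1 in fructose, against 112, 127 and 118 in glucose, a difference of -0.22 (SE 0.08, limma adjusted p = 0.301). MSH6, a subunit of the mismatch sensor, had 599, 649 and 568 in fructose, against 668, 659 and 718 in glucose. The difference was -0.17 (95% interval -0.36 to 0.01), and fructose replicate 2 lay just under the lowest glucose array.

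All 5 end joining genes were below glucose, with differences from -0.28 to -0.06. XRCC4, the scaffold of the ligase complex, had 114, 123 and 113 in fructose, against 139.6, 142 and 144 in glucose, a difference of -0.28 (SE 0.07, limma adjusted p = 0.199). PRKDC, the DNA-dependent protein kinase that the broken end activates, had 440.4, 477 and 424 in fructose, against 536, 524 and 531 in glucose, a difference of -0.25 (SE 0.07, adjusted p = 0.242). Neither gene overlapped between the sugars. The Ku subunit XRCC5 had 813, 883 and 814 in fructose, against 938, 878 and 974 in glucose (difference -0.15), and fructose replicate 2 again lay within the glucose range. The other Ku subunit, XRCC6, differed by -0.06 with no overlap, and the ligase LIG4 by -0.13 with overlap (122, 115 and 117 in fructose, against 119, 129.6 and 138 in glucose).

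**Figure D3:**
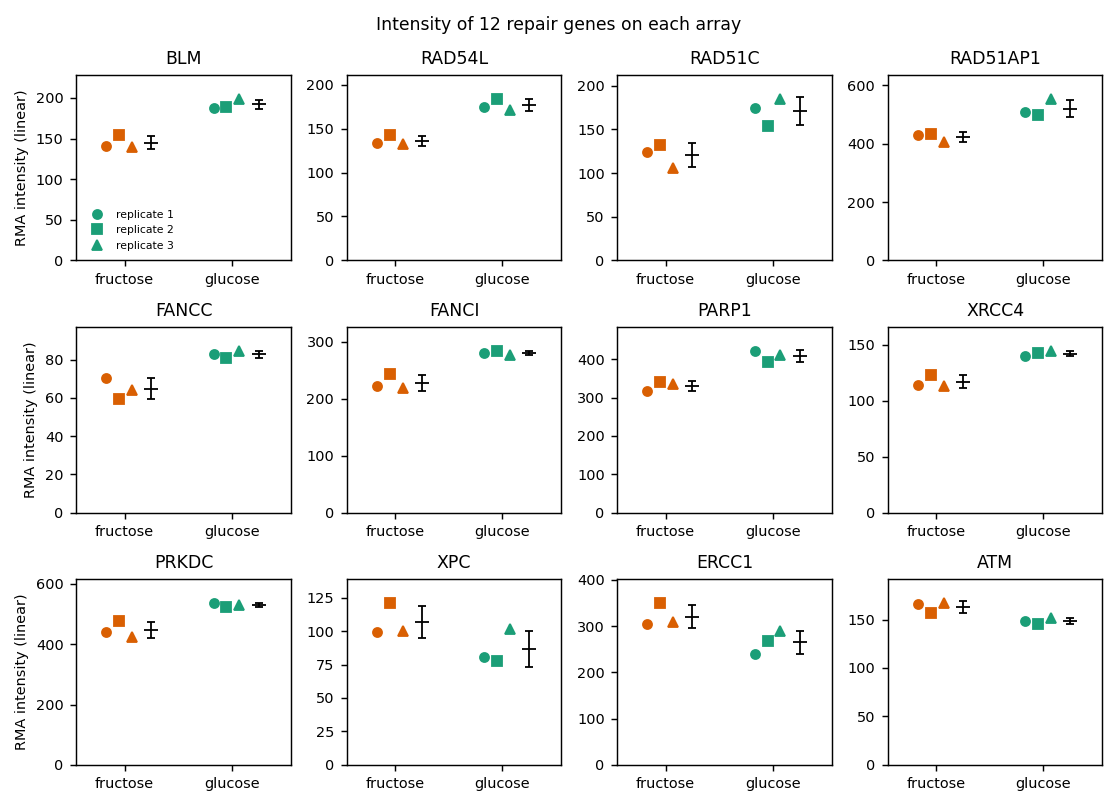
RMA intensity on a linear scale from 0 of 12 repair genes, chosen after their values were seen. Symbols are the 3 replicates of each sugar, fructose left and glucose right, and black marks are the mean with SD. BLM, RAD54L, RAD51C, RAD51AP1, FANCC, FANCI, PARP1, XRCC4 and PRKDC are lower on every fructose array, ERCC1 and ATM are higher on every one, and XPC overlaps through glucose replicate 3.

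The excision genes were split. PARP1, which senses single-strand breaks and builds poly(ADP-ribose) there, had 317, 340.0 and 335 in fructose, against 422, 392 and 411 in glucose. No array overlapped, and the difference was -0.30 (SE 0.07, limma adjusted p = 0.188). XRCC1, the scaffold that PARP1 recruits, was on the other side with 117, 119 and 113 in fructose, against 97.1, 110.4 and 111 in glucose (difference 0.14, 95% interval -0.05 to 0.32).

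The nucleotide excision genes were mostly higher. ERCC1, the partner of the nuclease that cuts 5′ of a lesion, had 305, 349.7 and 308 in fructose, against 239, 268 and 289 in glucose, a difference of 0.27 (SE 0.10, limma adjusted p = 0.312). XPC, the sensor of helix distortion, had 99.7, 121 and 101 in fructose, against 80.9, 77.5 and 102 in glucose. Its difference of 0.31 (SE 0.13, adjusted p = 0.375) was the highest among the 43 repair genes, although glucose replicate 3 lay within the fructose values. These 2 genes were brightest on fructose replicate 2, the array on which most of the lower genes were nearest to glucose. The helicase subunit ERCC2 differed by 0.08 and the damage verifier XPA by -0.13, both with overlap.

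Among checkpoint genes, the kinase CHEK1, which ATR activates at stalled forks, had 374, 379 and 343 in fructose, against 409, 422 and 433 in glucose. No array overlapped, and the difference was -0.21 (SE 0.07, limma adjusted p = 0.304). ATR had 123, 143 and 122 in fructose, against 137, 153 and 153 in glucose, a difference of -0.19 (95% interval -0.41 to 0.02), with fructose replicate 2 inside the glucose range. ATM, the kinase that answers double-strand breaks, was higher on all fructose arrays, with 167, 156 and 167 in fructose, against 148, 145 and 151 in glucose (difference 0.14, 95% interval -0.02 to 0.29). The kinase it activates, CHEK2, differed by 0.04 with overlap.

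The clamp genes of the checkpoint also differed in sign. RAD9A, a subunit of the checkpoint clamp, was at 0.12 with all fructose arrays above glucose, and RAD1, another subunit, was at -0.07. RAD17, which loads the clamp, had 193, 179 and 171 in fructose, against 219.9, 193 and 193 in glucose, a difference of -0.16. It was the only one of the 43 with a further probe set, and that probe set differed by 0.23 (SE 0.11), so the direction of RAD17 depends on the probe set. RAD18, the ligase that ubiquitinates the replication clamp for lesion bypass, was at 0.00 (95% interval -0.19 to 0.20).

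Further genes of these pathways were listed, 114 in all, of which 101 were measured. Their median difference was -0.02, with 58 lower in fructose (57.4%, against 43.5% of all genes). At an unadjusted p under 0.05, 13 (12.9%) were lower, against 5.74% of all genes, and 7 (6.93%) higher, against 8.53%. Of the 101 genes, 0 passed after adjustment with limma. By route their medians were -0.06 in recombination (20 genes), 0.02 in the Fanconi route (11), -0.03 in mismatch repair (3), 0.00 in excision (32), -0.05 in end joining (11) and -0.05 in the checkpoint with lesion bypass (24). The difference between the 101 and the 43 genes was not tested, and both lists were chosen with earlier results of these data known.

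Differences of single genes ran from -0.50 to 0.31 among the 43 and from -0.37 to 0.40 in this wider list. EXO1, the nuclease that resects ends and excises mismatches, differed by -0.37 (240.3, 262 and 228 in fructose, against 302, 317 and 322 in glucose). RIF1, which limits resection, differed by -0.36, its partner TP53BP1 by -0.20, and HLTF, a translocase of lesion bypass, by -0.35. Of the 11 further end joining genes, 7 were lower and 4 higher, with NHEJ1 at 0.20. NEIL3, a glycosylase active at replication forks, differed by -0.32, ABRAXAS1, a scaffold of a BRCA1 complex, by -0.29 and USP1, the deubiquitinase of the Fanconi clamp, by -0.18. SWI5, a recombination mediator, was at 0.40 and POLB, the gap-filling polymerase of base excision, at 0.27. EXO1, RIF1 and HLTF fell past the threshold with an intensity trend and robust variances (adjusted p = 0.0282, 0.0341 and 0.0264).

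**Figure D4:**
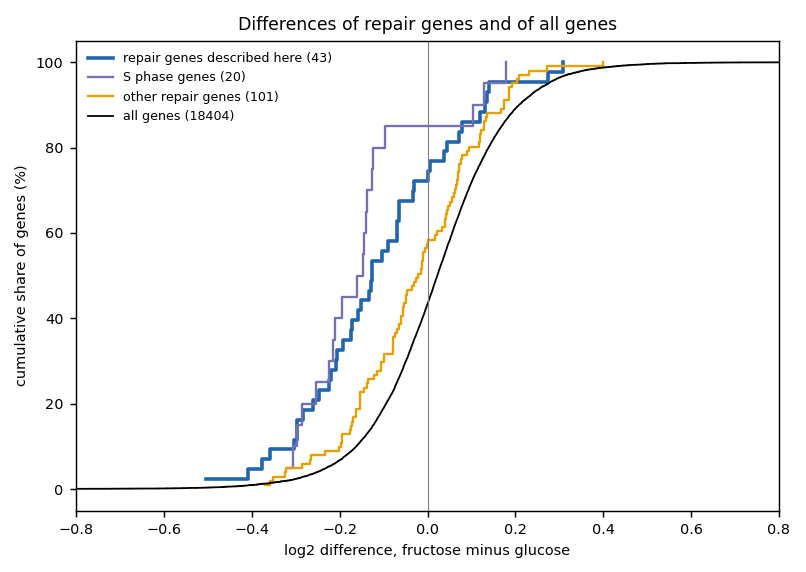
Cumulative share of genes (percent) by log2 difference (fructose minus glucose) for the 43 repair genes described, 20 S phase genes, 101 other repair genes and all 18404 genes. At a difference of 0 the curves stand at 72.1%, 85.0%, 57.4% and 43.5%, so there the 43 genes lie between the S phase genes and the other repair genes. The order differs at the left end, where the lowest S phase gene is at -0.32 and the lowest of the 43 at -0.50.

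Most genes of the cell cycle lists were lower in fructose too. Of 20 S phase genes, 17 were lower, with a median of -0.15 and with -0.17, -0.07 and -0.26 on fructose replicates 1, 2 and 3, the same order of arrays as for the repair genes. PCNA, the replication clamp, differed by -0.31 and GINS1, a part of the replicative helicase, by -0.32. The 3 higher S phase genes were CCNE1 (0.18), E2F1 (0.13) and CDT1 (0.10), each with overlap. Summed intensity over the 20 S phase genes ran from 6919 to 7842 on the fructose arrays and from 7982 to 8520 on the glucose arrays. Of 15 mitosis genes, 13 were lower, with a median of -0.05 that came to -0.01 once fructose replicate 3 was left out and to -0.08 once fructose replicate 2 was. TTK was at -0.37 and CENPE at -0.29, while MKI67, BUB1, PLK1, CDC20 and CENPF, picked out here after their values were seen, lay between -0.03 and 0.00. In bulk RNA, fewer cells in S phase and less RNA of these genes per cell cannot be told apart, and the part of the cell cycle in the repair gene values was not tested. The control probe sets of the arrays had a median difference of -0.06, and the part of that offset was not tested either.

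The p53 target genes, which DNA damage can induce through the transcription factor p53, were not displaced as a list. Of 18 measured, 7 were lower and 11 higher, and the median was 0.02. At an unadjusted p under 0.05, 0 were lower, against 5.74% of all genes, and 2 were higher, against 8.53%. One was CDKN1A, the inhibitor that stops the cycle after damage, with 158, 157 and 150.4 in fructose, against 117, 115 and 133 in glucose. All fructose arrays lay above glucose, and the difference was 0.35 (SE 0.08, limma adjusted p = 0.188). The other was TP53I3, an oxidoreductase gene, at 0.32. Activity of p53 in these cells was not tested, so these genes do not show whether damage signalling was on. Of the marker genes of other cell types, 4 of 4 leukocyte genes and 4 of 5 fibroblast genes lay below the median tested probe set, with COL1A1 above it. Summed intensity over 4 leukocyte genes was 62.2 to 65.8 in fructose and 63.5 to 71.8 in glucose, and over 5 fibroblast genes 87.6 to 92.0 in fructose and 93.2 to 99.2 in glucose. Over the 8 luminal genes it was 456 to 583 in fructose and 535 to 579.8 in glucose, and the part of these cell types in the repair gene values was not tested. No fold of a repair gene exceeded 1.42, the lower level of RAD51C in fructose, and with 3 arrays a group the median SE of a difference was 0.09.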

How the data were processed

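The 6 arrays of the series were used, 3 per sugar, grouped by the sample titles. The intensities that the authors deposited, a single value for each probe set on each array, come from RMA according to the submitters' processing notes, whose version, software and build are not stated there. Since no value was at or below 0 and the highest was 9287, the scale was taken as linear and values were converted to log2, with no pseudocount. The table held 32321 rows, and 4091 with identifiers below the lowest annotated one were taken as control probe sets and left out, a reading of the numbering. The other 28230 were tested, of which 19158 carry 1 symbol in the platform annotation, 1388 several and 7684 none. A current RefSeq gene table (GRCh38.p14) held 19128 of these 19158 by gene number, and 0 symbols differed.

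Fructose minus glucose was fitted with limma 3.58.1 in R 4.3.3 (two-sided, lmFit and eBayes at default settings, sugar as the only term), and p-values were adjusted by Benjamini-Hochberg over all tested probe sets. The procedure was tested on simulated data with planted differences larger than that of any repair gene, so that test does not cover differences of their size. Arrays carry no read depth, and their number limits the precision. Same-numbered fructose and glucose arrays did not deviate together (r = -0.03, -0.02 and -0.05 over probe sets), so the numbers were not treated as pairs.

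Values per array are given for the 4 genes of each route with the smallest p, for BRCA1, CHEK1, ATM, ATR and PARP1, and for a few others chosen after their values were seen (FANCE, FANCL). Of each further list, up to 2 genes with the smallest p are named, and a few others were picked after their values were seen. The members and lists were chosen with earlier results of these data known.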

Additional observations from a re-analysis of the deposited data

How the results depend on the processing

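The medians of the 43 repair genes, of the recombination, Fanconi, mismatch and end joining routes (all negative) and of excision (positive) kept their sign under every alternative: a replicate block, each array left out, repeated quantile normalization, median centring, array weights, controls kept, probe sets of a gene averaged, dim probe sets dropped, and robust variances with an intensity trend. Between 30 and 33 of the 43 genes were lower in each. The count of genes past the threshold was 0 under all but 2 of these, where 3 (bright probe sets) and 6 (trend with robust variances) fell. With the replicate block, 11 genes were lower and 1 higher at an unadjusted p under 0.05, against 12 and 2 without it, and 0 passed after adjustment.

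The count higher at an unadjusted p under 0.05, 2 in the reported fit, was 1 after quantile normalization, with array weights and with controls kept, 0 after median centring, and 0 to 2 with an array left out. Genes with all fructose arrays above glucose numbered 3 (6.98%) after quantile normalization, against 11.9% of all genes, and 2 (4.65%) after centring, against 8.95%. They numbered 6 to 7 (14.0% to 16.3%) with an array left out, against 17.0% to 21.3% of all genes. Those with all below numbered 15 to 24 (34.9% to 55.8%) with an array left out, the highest without fructose replicate 2, against 12.9% to 15.3% of all genes. The end joining median was -0.18 after centring and -0.19 to -0.12 with an array left out. Medians of the wider lists with an array left out ran from -0.0658 to -0.0242 in recombination, -0.0367 to 0.0347 in the Fanconi list, -0.0700 to 0.0316 in mismatch repair, -0.00627 to 0.0277 in excision, -0.0607 to -0.00418 in end joining and -0.0855 to -0.0447 in the checkpoint, and from -0.0427 to -0.00614 over all 101 genes. After centring the recombination list stood at -0.0891 and all 101 genes at -0.0477. The checkpoint members' median ran from -0.102 to 0.00253 with an array left out. RAD17 turned to 0.0349 with the mean of its probe sets, since its further probe set has the opposite sign. The cause of the other shifts was not tested.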
